A study of Mus musculus with 40 samples.

Results

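The 48 genes described here are interferon response genes, taken by symbol from the tables of transcript abundance of mouse lung organoids and embryonic lung tips. All 48 were listed in each of the 5 tables, of 55260 gene symbols in 4 of them and 55286 in the table of LO libraries. Not all were detected in each table. At least 1 TPM in 2 or more libraries was reached by 46 of the 48 in the table of tips and organoids, by 45 in that of organoid pieces, by 44 in that of the numbered ALL groups and by 31 each in the LO and 2C tables. TPM is a share of all transcripts corrected for transcript length, so levels of different genes can be set beside each other.

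The series followed branching lung organoids, which are cultures of primary tip epithelium, the growing ends of the embryonic airway tree. Of the 40 libraries, 14 covered 4 tips (1 each at embryonic days E10.5 to E13.5) and 10 organoids. The organoids were started at E10.5 and cultured for 11, 18 or 32 days, at E13.5 for 11, 19 or 30 days, at E14 for 11 or 24 days, at E11.5 for 11 days and at E9.5 for 13 days. Another 9 libraries were an intact organoid and 8 pieces named by position. A further 8 were 2 each of ALL, ALL-VC, ALL-FGF10 and ALL-MTG, 4 were LO libraries of days 8, 11 and 18 and of day 11 with DCI, and 5 were 2C, 2C+F10, 2C+MTG, 2C+VC and 1 more ALL library, which carries no number. The labels define none of ALL, MTG, VC, F10, 2C, DCI or LO. That ALL-X lacks X and that 2C+X contains it is taken from the form of the names, not from a statement. The labels name no strain or genotype, and they do not say whether libraries of a group came from separate animals or cultures, so a p-value here reflects how far these libraries spread and no more.

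Interferons are secreted proteins that cells release when they sense foreign or misplaced nucleic acid. Type I and type III interferons bind their receptors and activate JAK kinases, which switch on transcription factors, among them STAT2 and IRF9, that bind the interferon-stimulated response element (ISRE) upstream of target genes. The targets include RNA sensors, RNA-degrading and translation-blocking proteins, the ubiquitin-like modifier ISG15, large GTPases and the parts of the immunoproteasome, and airway and alveolar epithelium is known to mount this response. Interferon gamma acts through a different element, GAS.

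The ISRE was visible in the sequence near the start of many members. The core letters, GAAA, any 2 bases and GAAA again, were searched on both strands from 250 bases before to 50 bases past the RefSeq start (GRCm38.p6). They were found for 19 of the 38 members with an entry (50%) and for 3.99% of all 27025 genes with one. For Ifih1, Ddx58, Ifitm3 and Eif2ak2 every ISRE match lay past the start. The GAS letters, TTC and GAA with any bases in the gap of 3, were found for 10 of the 38 (26.3%) and for 9.55% of all genes, and a stretch can hold both. The 160 bases before the start are shown for members on which the results turn, with each ISRE match in capitals. Isg15, Ifit3, Ifit3b, Oas1a and Bst2 carry matches, and Lgals3bp, the member with the steepest change over culture, has none in this window. Most of that Lgals3bp window lies inside the gene as GENCODE annotates it (chr11:118392751-118402092), since the RefSeq start lies within that span. Ifit3 and Ifit3b are neighbouring copies, as their shared letters show.
Isg15, chr4:156200819-156200978, minus strand: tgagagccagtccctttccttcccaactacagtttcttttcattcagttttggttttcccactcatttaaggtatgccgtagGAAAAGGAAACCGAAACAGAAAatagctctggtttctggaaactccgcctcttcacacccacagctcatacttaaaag
Ifit3, chr19:34583369-34583528, plus strand: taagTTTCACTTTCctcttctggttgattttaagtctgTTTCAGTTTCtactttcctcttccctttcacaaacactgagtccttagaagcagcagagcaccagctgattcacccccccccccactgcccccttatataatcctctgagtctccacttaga
Ifit3b, chr19:34607797-34607956, plus strand: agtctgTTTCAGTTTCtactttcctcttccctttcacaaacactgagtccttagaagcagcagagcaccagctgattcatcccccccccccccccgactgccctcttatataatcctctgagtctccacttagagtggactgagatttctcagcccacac
Oas1a, chr5:120907526-120907685, minus strand: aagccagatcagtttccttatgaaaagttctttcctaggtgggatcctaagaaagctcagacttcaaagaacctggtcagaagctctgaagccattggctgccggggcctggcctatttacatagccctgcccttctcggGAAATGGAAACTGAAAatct
Bst2, chr8:71537473-71537632, minus strand: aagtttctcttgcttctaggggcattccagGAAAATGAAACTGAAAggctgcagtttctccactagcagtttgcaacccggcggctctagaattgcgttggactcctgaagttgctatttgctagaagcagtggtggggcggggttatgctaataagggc
Lgals3bp, chr11:118401960-118402119, minus strand: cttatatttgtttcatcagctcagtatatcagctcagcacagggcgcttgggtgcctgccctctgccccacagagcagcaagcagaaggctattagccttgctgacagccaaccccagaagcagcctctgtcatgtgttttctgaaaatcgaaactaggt
In Isg15 and Bst2 the matches overlap into a longer run, and in Oas1a they lie just before the start. A match describes the letters only.

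Every library had the 8 lung epithelium markers Nkx2-1, Epcam, Cdh1, Foxa2, Krt8, Krt18, Sox9 and Cldn18 above 0. The 10 immune cell markers summed to 0.67 to 11.8 TPM per library, with 2 to 9 of the 10 at 0. Tips also held 1749 to 7642 TPM of 5 red blood cell genes, against 0 to 2.95 TPM in the 36 cultured libraries. Mitochondrial genes took 6.54 to 15.2% of TPM, and 13036 to 14418 genes reached 1 TPM. Sequencing depth is unknown, because TPM keeps none. In bulk RNA, fewer expressing cells and less RNA per cell cannot be told apart.

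In the tips most of these genes were close to silent. Of the 48, 26 stayed under 1 TPM in all 4 tips and 13 reached 1 TPM in every tip. The translation-blocking IFIT gene Ifit2 and Trim25 had the highest mean levels in tips. Trim25 is a ubiquitin ligase that activates the sensor RIG-I. Ifit2 (chr19:34550694-34576419 in GRCm38, the build of all coordinates) stood at 18.1, 13.0, 22.5 and 13.8 TPM in tips from the earliest to the latest day, the order used for tips throughout. Trim25 stood at 17.6, 18.4, 18.3 and 19.1 TPM. Isg15 was listed at 0 in 3 tips and at 0.57 TPM at E12.5, and Oas1a, an RNA-activated synthetase, at 0 in 3 tips and 0.16 TPM at E12.5. Tips thus held some members well above others before any culture.

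Organoids held more of many members than tips. By limma on log2(TPM + 1) with Benjamini-Hochberg adjustment over 16779 genes, 26 of 46 tested members were higher and 0 lower in the 10 organoids, while 21.7% of all genes tested were higher and 40.2% lower. The median change was 1.48 for the members and -0.20 for all genes. Rescaling by median ratios shifted all genes by 0.25 and left 28 members higher, 30.3% of all genes higher and 31.5% lower. Of the 26 called, 14 did not have 1 TPM in 2 of the 4 tips and so entered the test through the organoids, where they had to be higher. The other 12 are Irf1, Irf9, Stat2, Bst2, Ddx58, Parp9, Dtx3l, Trim25, Irgm1, Lgals3bp, Eif2ak2 and Tap1.

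All 4 transcription factors among the members rose. Irf1, a factor induced by interferon gamma and by other signals (chr11:53770014-53778374), was at 7.91, 9.23, 4.5 and 7.31 TPM in the tips, and from 18.1 to 33.7 TPM with a median of 25.6 in the organoids. The groups did not overlap, and the log2 change was 1.72 ± 0.20 (SE, adjusted p = 1.84e-06 by limma). Stat2, the partner of IRF9, changed by 1.42 and Irf9 by 1.07. Irf7, the factor that amplifies type I interferon production, changed by 2.11 but was at most 0.31 TPM in any tip.

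Of the 4 RNA sensors 2 rose, Ddx58 and Ifih1, as did all 3 genes of the PARP9 group and all 3 of antigen processing. Dhx58 (0.49) and Zbp1 (0.33) did not pass. Ddx58 encodes RIG-I, a sensor of viral RNA (chr4:40203773-40239828). Its tips held 5.87, 2.18, 2.15 and 4.75 TPM and its organoids 11.9 to 48.7, a log2 change of 2.10 ± 0.33. Irgm1, an immunity-related GTPase (chr11:48861968-48871683), had 1.24, 1.56, 1.54 and 0.85 TPM in tips and 9.95 to 37.0 in organoids (2.85 ± 0.27). Parp9, which with its partner Dtx3l modifies histones and viral proteins, changed by 2.26 ± 0.26. Psmb8, Psmb9 and Tap1, which cut and transport peptides for MHC class I, all passed the test, with Psmb8 changing by 3.46.

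Ifi35, an interferon-induced leucine zipper protein (3.55 ± 0.31), and Samd9l, an antiviral translation repressor (3.26 ± 0.30), are among the 14 called members that did not have 1 TPM in 2 tips and entered the test through the organoids, as are Psmb8, Psmb9, Ifih1, Parp14 and Irf7. Samd9l was at 0.12, 0.82, 0.47 and 1.22 TPM in tips and from 8.45 to 33.2 TPM in organoids. None of the OAS genes was called, and Trim25 was the only 1 of the 4 members of the ISG15 system to pass. In all, 24 of 46 members had every organoid above every tip, as did 2102 of all 16779 genes. These 24 include each of the 14 called members that entered the test through the organoids, except Ifi27. For those the filter itself favoured a place in this count. The same 24 were already above the tips in the 5 organoids of 11 to 13 days, where 17.0% of all genes were. Tips and organoids also differed in red blood cell genes, and mitochondrial genes took 6.54 to 8.29% of TPM in tips and 11.3 to 15.2% in organoids. The part of these in the changes was not tested.

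**Figure D1:**
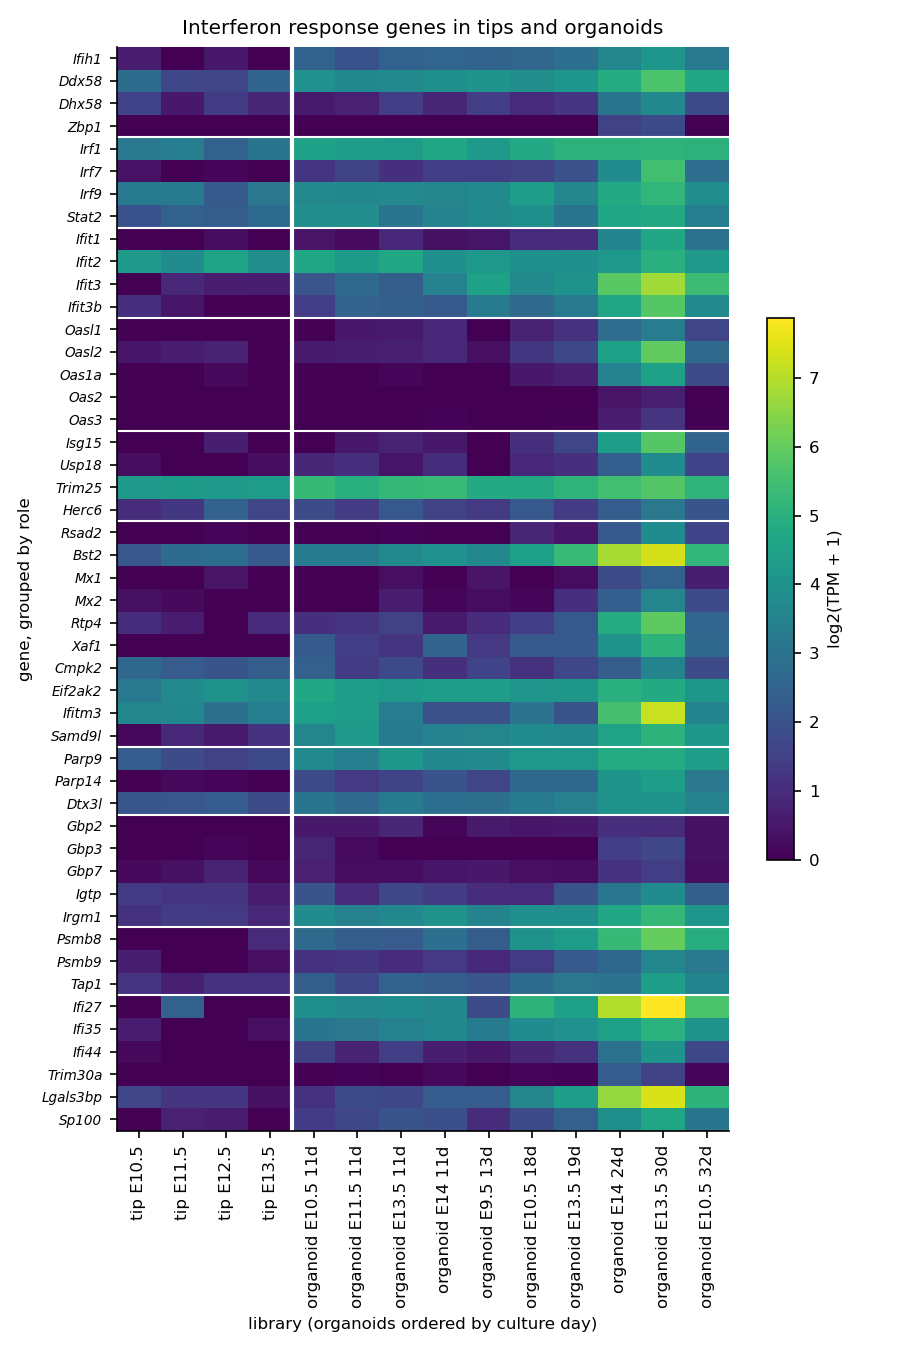
Heat map of log2(TPM + 1) for the 48 interferon response genes (rows, grouped by role with white lines) in 4 tips and 10 organoids (columns, organoids ordered by culture day). Each cell is 1 library. The brightest columns are the E14 organoid of 24 days and the E13.5 organoid of 30 days, which holds the highest value of 43 of the 46 members that reached 1 TPM in 2 libraries.

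With culture time the members departed further from all genes, though these calls depended more on single libraries, as given below. With start stage in the model, 31 of 46 members rose with culture day and 0 fell, against 2.97% of all genes rising and 6.67% falling (limma, adjusted p under 0.05). The median fitted change over the 21 days between the youngest and the oldest cultures was 1.84 for members and -0.17 for all genes. Median-ratio rescaling shifted all genes by 0.16, and 34 members then rose, with 4.21% of all genes rising and 2.81% falling. Of the 31, 8 did not have 1 TPM in 2 of the 5 organoids of 11 to 13 days and entered through the older ones, namely Isg15, Ifit1, Oasl1, Oasl2, Oas1a, Rsad2, Mx1 and Mx2. Of the 33 members with at least 1 TPM in 2 young organoids, 23 rose.

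Lgals3bp, a secreted glycoprotein that binds galectins (chr11:118392751-118402092), had the steepest fitted rise. It was at 1.24, 2.38, 2.20 and 3.90 TPM in the 11-day organoids of E10.5, E11.5, E13.5 and E14 and at 3.86 in the 13-day organoid of E9.5. It reached 10.9 TPM at 18 days (E10.5), 20.4 at 19 days (E13.5), 98.8 at 24 days (E14), 167 at 30 days (E13.5) and 33.2 at 32 days (E10.5). No older organoid overlapped the young ones, and the fitted change was 4.92 ± 0.54 (adjusted p = 0.000749).

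Of the IFIT genes 3 of 4 rose, and so did the 3 of 5 OAS genes that could be tested. Ifit3 (chr19:34583531-34588731), like the other IFIT proteins a binder of foreign RNA or of its partners, was at 3.21, 5.59, 3.98 and 10.2 TPM at 11 days and at 21.8 TPM at 13 days. It then read 12.0, 15.5, 57.6, 109 and 41.2 TPM at 18, 19, 24, 30 and 32 days, so the 13-day E9.5 organoid exceeded both of the 18 and 19 days (fitted change 3.45 ± 0.59). Ifit1 changed by 3.57 ± 0.47 and Ifit3b by 2.66 ± 0.51. Ifit3 and Ifit3b share 51.2% of the 50-base words of Ifit3 transcripts, so the split of reads between them is uncertain. Ifit2 went from 14.6 to 24.8 TPM in young organoids and from 17.2 to 31.2 in those of 24 to 32 days, which overlap (0.16 ± 0.31, adjusted p = 0.80).

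The oligoadenylate synthetase (OAS) family turns on an RNA-cutting enzyme when it meets double-stranded RNA. Oasl2, an OAS-like gene, was under 1 TPM in all 5 young organoids and at 1.41, 2.27, 21.4, 60.4 and 5.60 TPM at 18, 19, 24, 30 and 32 days. The fitted change was 3.92 ± 0.61. Oas1a changed by 3.38 and Oasl1 by 2.20. Oas1a shares 57.6% of its 50-base words with Oas1g, so these copies cannot be separated with certainty. Oas2 and Oas3 did not reach 1 TPM in 2 libraries of this table.

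Isg15 (chr4:156199424-156200818) encodes the ubiquitin-like protein that is attached to other proteins during the response. It was at 0, 0.42, 0.70 and 0.45 TPM at 11 days and 0 at 13 days, then at 1.10, 2.15, 20.1, 54.7 and 4.79 TPM at 18, 19, 24, 30 and 32 days. Thus the 30-day E13.5 organoid stood far above the 32-day E10.5 organoid. The fitted change was 4.04 ± 0.59 (adjusted p = 0.00223). Usp18, the protease that removes ISG15 and dampens receptor signalling, changed by 1.98 ± 0.46. Trim25 (0.29) and the ligase gene Herc6 (0.87) did not pass.

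Among other antiviral effectors Bst2, the tetherin that holds budding virus at the cell surface (chr8:71534255-71537456), was at 8.71, 8.63, 12.47 and 14.9 TPM at 11 days and 11.7 at 13 days. It read 20.9, 39.7, 115, 163 and 35.6 TPM at 18, 19, 24, 30 and 32 days, all above the young organoids (2.98 ± 0.42, adjusted p = 0.00208). Rsad2 (viperin), Mx1, Mx2, Rtp4 and Xaf1 rose as well, by 1.52 to 3.46. Ifitm3, which blocks virus entry, was scattered. It ranged from 2.85 to 20.8 TPM in young organoids and read 45.8, 146 and 10.8 TPM at 24, 30 and 32 days, and its change of 2.15 ± 1.07 did not pass (adjusted p = 0.229). Eif2ak2, the kinase PKR, stayed between 16.1 and 31.0 TPM across all 10 organoids (0.13 ± 0.26).

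The immunoproteasome genes rose tightly with time. Psmb8 (chr17:34197721-34201454) read 5.61, 3.96, 3.82 and 6.30 TPM at 11 days, 3.97 at 13 days, and 15.3, 19.0, 37.9, 63.7 and 29.0 TPM at 18, 19, 24, 30 and 32 days. Young and older organoids did not overlap, and the change was 3.22 ± 0.37 (adjusted p = 0.000761). Psmb9 changed by 2.33 ± 0.27 and Tap1 by 1.77 ± 0.30. Psmb9 and Tap1 overlap in the annotation on opposite strands, as do Parp9 and Dtx3l, and whether counting used strand is not given in the sources used here.

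The sensors Ifih1 (MDA5), Ddx58 and Dhx58 changed by 1.37, 1.34 and 1.92. Parp14, Parp9 and Dtx3l changed by 2.32, 1.00 and 0.91. Of the GTPases, Igtp (1.72) and Irgm1 (1.00) rose, whereas Gbp2, Gbp3 and Gbp7 did not exceed 2.19 TPM in any organoid and were not called. Ifi27, a mitochondrial and nuclear membrane protein, rose by 3.5 ± 0.79, from 2.51 to 14.2 TPM in young organoids to 124, 234 and 48.6 TPM at 24, 30 and 32 days. Irf7 was the only transcription factor of the 4 that rose (2.91 ± 0.54). Irf1 (0.69, adjusted p = 0.0594), Irf9 (0.92) and Stat2 (0.58), which organoids already held at 7.30 TPM or more, did not pass. Sp100 (2.34), Ifi44 (1.94), an interferon-induced protein, and Ifi35 (1.27) rose. Samd9l (1.05), Cmpk2 (0.98), Zbp1 (1.00) and Trim30a (1.03) were also not called.

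**Figure D2:**
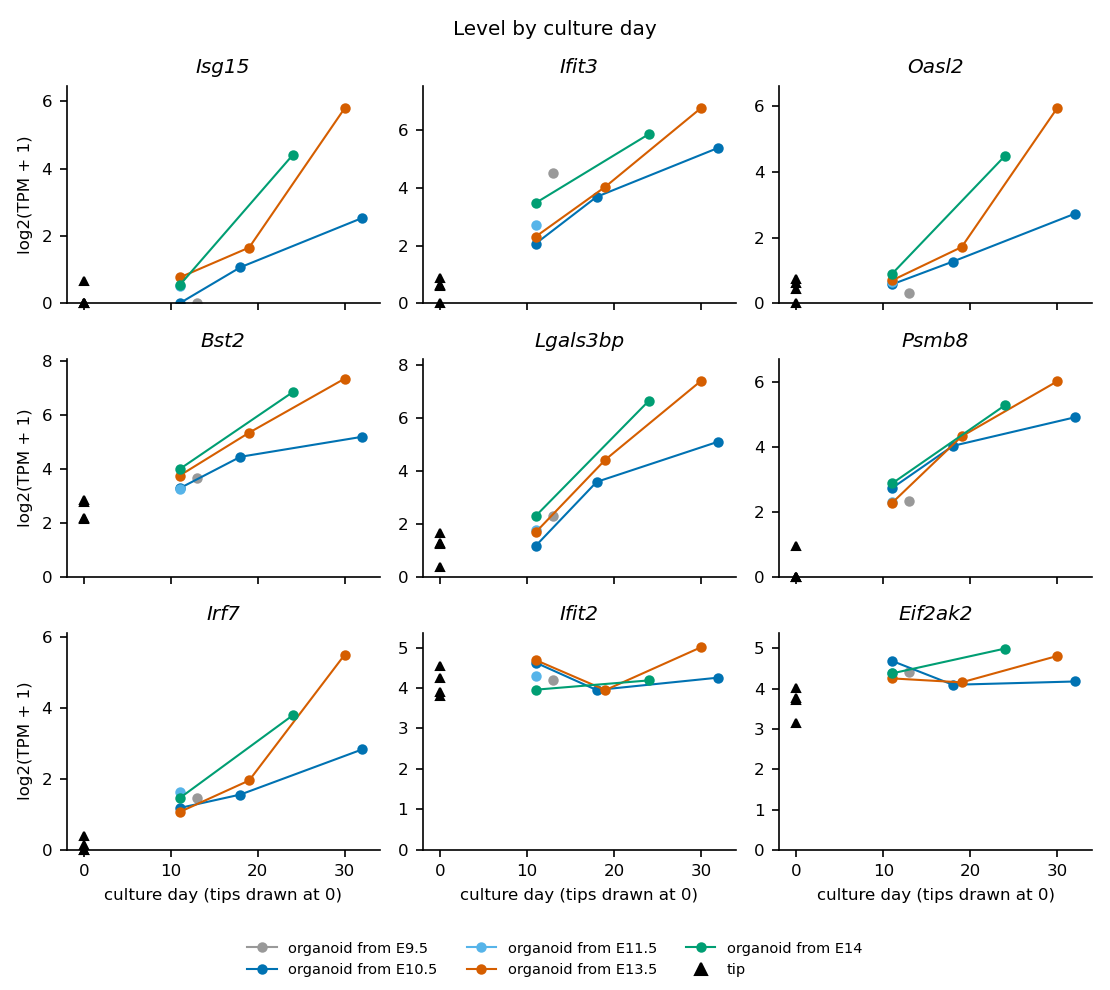
Log2(TPM + 1) of 9 members against culture day, with organoids coloured by start stage and joined within a stage, and the 4 tips drawn at 0. Each point is 1 library. The other 7 members climb along every line that joins organoids of a stage, whereas Ifit2 (14.5 to 31.2 TPM) and Eif2ak2 (16.1 to 31.0 TPM) do not.

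The rise was seen in 3 start stages. Between the 11-day and 24-day E14 organoids 46 of 46 members were higher in the older one, as were 39.8% of all genes. Along 11, 19 and 30 days from E13.5, 31 of 46 members were higher at each step (15.4% of all genes). Along 11, 18 and 32 days from E10.5, 28 of 46 were (7.72% of all genes). The 3 organoids of 24 to 32 days lay above all 5 young ones for 33 of 46 members (4.79% of all genes). Among them are Isg15, Ifit1, Oasl1, Oasl2, Oas1a, Rsad2, Mx1 and Mx2, which entered the test through the older organoids. For members that entered in this way, the filter itself favoured a place in this count and in the counts by step. Levels did not follow days alone, since 46 of 46 members were higher in the 30-day E13.5 than in the 32-day E10.5 organoid, as were 62.6% of all genes. For start stage itself 0 of 46 members were called by limma (0.0536% of all genes) and 18 had an unadjusted p under 0.05, against 7.45% of all genes, with all 46 estimates positive.

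The 30-day E13.5 organoid held the highest value of 43 of 46 members (7.57% of all genes). Without it 19 members rose with culture day in place of 31, and 12 did without it and the 24-day E14 organoid, a choice made after seeing the data. Its immune markers summed to 8.54 TPM, against 1.61 to 3.33 TPM in the other 9 organoids. This came from Cd68 (5.61 TPM), Csf1r (1.99) and Fcer1g (0.89), with Itgam at 0.05. Ptprc, Adgre1, Tyrobp, C1qa and Cd3e and the plasmacytoid dendritic cell gene Siglech were listed at 0. The part of these cells in the levels was not tested.

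The other genes of the pathway were counted from lists. Of 12 interferon genes, 9 were at 0 in all 40 libraries and none was high enough to be tested. Ifnb1, encoding interferon beta, was listed at 1.39 TPM in the right-half piece and at 0 in the other 39 libraries. Ifnk reached at most 0.66 TPM and Ifne 0.39. The receptors were present, since in organoids against tips Ifnar2, Ifngr1, Ifngr2, Ifnlr1 and Il10rb rose and Ifnar1 fell. Il10rb, a subunit of the interferon lambda receptor, went from 4.27 to 6.16 TPM in tips to 33.4 to 44.5 TPM in young organoids (2.81 ± 0.13, adjusted p = 1.58e-10). With culture day Ifnar2 rose by 0.91 and Ifnar1 fell by 0.45.

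Of 57 further interferon-stimulated genes 41 could be tested, and 13 rose with culture day and 0 fell (2.97% and 6.67% of all genes). The largest were Phf11d (3.26), Oas1g (3.05), the galectin gene Lgals9 (2.60) and the GTPase gene Iigp1 (2.43). Of the 50-base words of the member Oas1a, 57.6% are also in Oas1g, so the rise of Oas1g cannot be separated from that of Oas1a. In organoids against tips 24 of the 41 rose and 7 fell (21.7% and 40.2% of all genes), the latter including Ifitm1 (-2.54) and Ifitm2 (-1.83). None of 8 genes that restrain the response, such as Socs1, was called for culture day. Of 9 sensing genes tested, Ikbke and Tlr4 rose.

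The LO libraries gave another course of days, with 1 library each and therefore no test. Differences of at least 1 on the log2(TPM + 1) scale were counted where the higher library had at least 5 TPM. From day 8 to day 18, 7 of 22 members at that level were higher and 0 lower, against 7.44% of all genes higher and 1435 of 11514 genes lower. They were Ifi27, Psmb8, Ifit3, Ifit3b, Lgals3bp, Bst2 and Parp14, all among the 31 that rose with culture day in the organoids above. Ifi27 was at 2.16, 2.84 and 29.5 TPM on days 8, 11 and 18, and Psmb8 at 1.90, 5.06 and 21.6 TPM. Ifit3 was at 0.96, 4.26 and 14.1 TPM. Psmb8 and Ifit3 climbed at both steps, whereas Ifi27 and Bst2 (4.83, 4.94 and 19.8 TPM for Bst2) changed mostly after day 11.

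By day 11, 2 of 16 members were higher than on day 8 and 0 lower, Lgals3bp (0.97 and 5.27 TPM) and Psmb8, against 2.38% of all genes higher and 2.87% lower. From day 11 to day 18 there were 7 of 22 higher and 0 lower (6.32% and 7.77% of all genes). Along days 8, 11 and 18, 18 of 31 members in the table were higher at each step (15.8% of all genes). Between days 8 and 18 alone, 23 of the 31 members with at least 1 TPM in 2 LO libraries were higher on day 18 (34.1% of all genes). The 31 members that rose with culture day in the organoids are a different set. Of these, 26 were higher on LO day 18 than on day 8, counted with no filter on TPM, and 14 had at least 5 TPM in the higher library. The response was far from the level of the oldest organoids in the other table, which was normalized separately. Isg15 was listed at 0.38, 0 and 0 TPM on days 8, 11 and 18, and Oasl2 did not exceed 1.11 TPM.

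With DCI on day 11, 4 of 21 members were higher and 1 lower than without it (11.2% and 13.0% of all genes). Ifit3b went from 1.70 to 13.47 TPM and Ifitm3 from 1.90 to 13.48. Bst2 went from 4.94 to 15.4 TPM and Ifi27 from 2.84 to 11.3, while Tap1 went from 7.62 to 2.68. Ifit3, which shares reads with Ifit3b, went from 4.26 to 6.54 TPM, so the split between these copies bears on the first value. The share of members past the fold was near that of all genes.

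**Figure D3:**
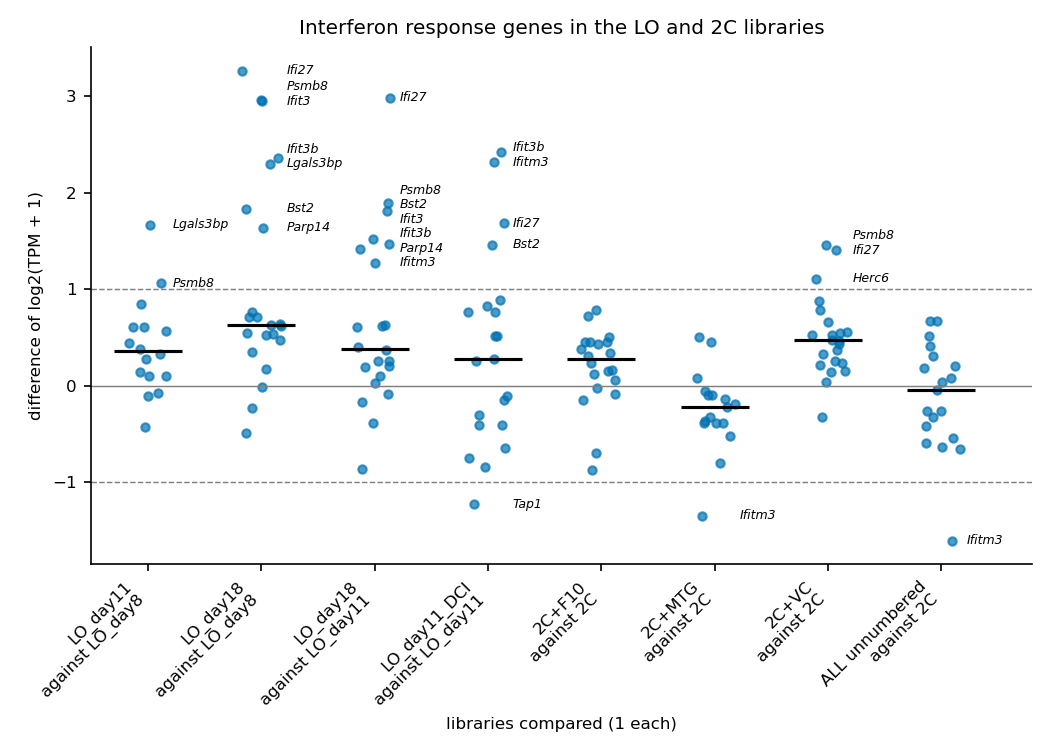
Differences of log2(TPM + 1) between single LO or 2C libraries, 1 point per member with at least 5 TPM in the higher library, with the median as a black bar and dashed lines at a difference of 1. The named members lie past the dashed lines. Day 18 against day 8 of LO holds 7 of them, and 2C+VC against 2C holds 3.

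The organoid pieces differed widely. There were 4 larger pieces, up-half, down-half, left-half and right-half, and 4 smaller ones, up-half-left, up-half-right, down-half-left and down-half-right. The labels do not say whether they were cut from the same organoid. The right-half piece held the highest value of 35 of 45 members (12.8% of all genes) and the down-half-right piece that of 8 (19.1%). They were among the 2 highest libraries for 44 and 41 members (27.3% and 35.9% of all genes). The up-half piece was lowest, with no tie, for 27 (11.3%). Isg15 was at 79.6 TPM in the right-half and 46.2 in the down-half-right piece. It was at 23.5 TPM in down-half-left, 12.54 in up-half-right, 12.2 in up-half-left, 5.01 in left-half, 1.69 in down-half and 0.80 in up-half, and at 8.63 TPM in the intact organoid. For Isg15 the pieces thus spanned most of the range of the culture days, in a table normalized separately. The median level of the members ran from 4.025 TPM in up-half to 35.8 TPM in right-half. In the organoids of 11 to 13 days it was lower, at 1.7 to 2.33 TPM.

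Ifit3 was at 253 TPM in the right-half, 198 in the down-half-right and 25.1 in the up-half piece, with 95.9 in the intact organoid. Ifitm3 ran from 0.84 TPM in up-half to 177 in right-half. Bst2 ran from 27.0 TPM in up-half to 254 in right-half, and Lgals3bp from 14.0 in left-half to 112 in right-half. By contrast Irf1 lay between 31.7 and 55.6 TPM and Trim25 between 30.3 and 62.2 in all 9 libraries. Irf1 was highest in the up-half-left piece, not in the right-half piece.

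The right-half piece was also the library with Ifnb1 listed above 0. Lgals9 was at 181 TPM there, 147 in down-half-right and 33.8 in up-half. Immune markers summed to 1.94 TPM in the right-half piece, within the 1.15 to 7.24 TPM of the others. Ptprc, Adgre1, Tyrobp, Fcer1g and C1qa were at 0 in it.

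In an additive fit over position and size no member was called by limma for left against right, up against down, smaller against larger pieces or pieces against intact, and 0% of all 15017 genes were. At an unadjusted p under 0.05 there were 8 of 45 members for left against right (3.08% of all genes), 4 for up against down (4.41%), 1 for smaller against larger pieces (5.32%) and 0 for pieces against intact (4.53%). For left against right 44 of 45 estimates were negative, with a median of -0.96 against -0.03 for all genes. Sp100 had the lowest unadjusted p of these (log2 difference -2.14 ± 0.69). Between the up-half-left and up-half-right pieces alone, members went either way. Oasl2 (11.2 and 13.0 TPM) and Irf7 (10.8 and 9.01 TPM) were close. Ifit3 (61.5 and 103 TPM) and Psmb8 (26.35 and 43.5 TPM) were higher in up-half-right. Irf1 (55.6 and 41.6 TPM) and Oas1a (6.04 and 3.24 TPM) were higher in up-half-left.

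**Figure D4:**
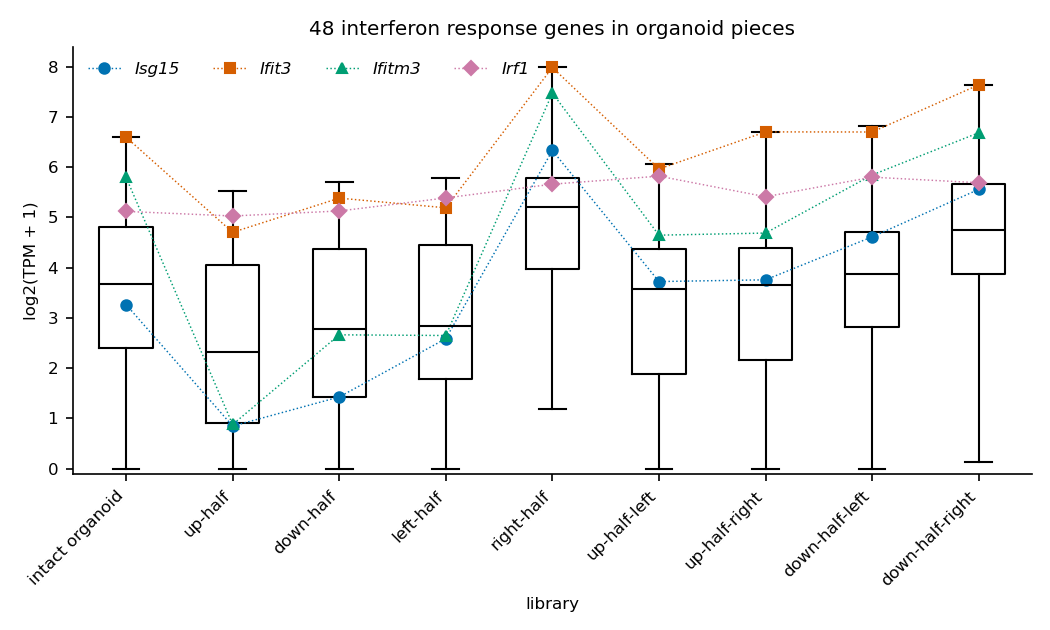
Box plots of log2(TPM + 1) of the 48 members in the intact organoid and 8 pieces, 1 library each (box, quartiles; line, median; whiskers, lowest and highest member), with 4 members drawn as points. Isg15, Ifit3 and Ifitm3 peak in the right-half piece and are low in the up-half piece, while Irf1 stays between 31.7 and 55.6 TPM.

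The numbered culture groups were compared next, to see which members depend on FGF10, MTG or VC. The 2 ALL libraries were far apart. ALL replicate 1 held the highest value of 42 of 44 members (14.2% of all genes), and the 48 members summed to 2003 TPM in it and 680 TPM in replicate 2. The sums were 590 and 776 TPM in ALL-FGF10, 353 and 387 in ALL-MTG and 324 and 387 in ALL-VC. Isg15 was at 78.6 and 10.9 TPM in ALL, 4.17 and 11.52 in ALL-FGF10, 1.30 and 1.67 in ALL-MTG and 0 and 0.66 in ALL-VC. Oasl2 was at 76.5 and 11.4 TPM in ALL, 6.21 and 15.1 in ALL-FGF10, 1.16 and 1.51 in ALL-MTG and 1.39 and 0.70 in ALL-VC. Both genes were lowest in ALL-MTG and ALL-VC, which did not overlap ALL, while ALL-FGF10 did. The 3 comparisons below share the same ALL libraries.

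In ALL-FGF10 3 of 44 members fell and 0 rose against ALL, with 0.953% of all 14802 genes falling and 0.878% rising. Sp100, a nuclear body protein (chr1:85649988-85709998), was at 23.4 and 6.95 TPM in ALL and 0.29 and 0.62 in ALL-FGF10 (log2 change -3.27 ± 0.52, adjusted p = 0.0315). Under 1 TPM in both ALL-FGF10 libraries, it was tested only because the other groups held more. Lgals3bp was at 92.6 and 40.9 TPM in ALL and 5.14 and 11.2 in ALL-FGF10 (-2.86 ± 0.47, adjusted p = 0.035). Tap1, the peptide transporter subunit, was at 19.3 and 11.9 TPM in ALL and 3.96 and 4.53 in ALL-FGF10 (-1.62 ± 0.28, adjusted p = 0.0417). The groups did not overlap for these 3. The lower calls did not extend to the IFIT genes, as Ifit3 was at 133 and 72.6 TPM in ALL and 99.3 and 130 in ALL-FGF10. Ifit2 was the only member whose ALL-FGF10 libraries both lay above both ALL libraries (24.2 and 31.5 against 20.8 and 14.4 TPM, as for 31.3% of all genes), and it was not called. Across the members 18 of 44 lay below ALL without overlap (21.9% of all genes). Of the 44, 39 had at least 1 TPM in both ALL-FGF10 libraries, and the rest passed the filter only with libraries of other groups. Each of the 3 calls was lost without either ALL-FGF10 library or without either ALL-VC library, when 0 were called, and 7 were called without ALL replicate 2.

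In ALL-VC 2 of 44 members fell and 0 rose against ALL, with 0.595% of all genes falling and 0.209% rising. Ifi27 was at 114 and 58.1 TPM in ALL and 10.45 and 6.69 in ALL-VC (-3.13 ± 0.34, adjusted p = 0.014). Psmb8 was at 63.4 and 36.1 TPM in ALL and 12.4 and 11.4 in ALL-VC (-1.92 ± 0.29, adjusted p = 0.037). Neither group overlapped the other. All 44 estimates were negative, with a median of -1.72 against 0.18 for all genes, 32 members lay below ALL without overlap (2002 of all 14802 genes), and 30 had an unadjusted p under 0.05 (17.1%). Of the 44 members, 30 had at least 1 TPM in both ALL-VC libraries. The rest, Isg15 among them, passed the filter only with libraries of other groups, which favours negative estimates. Isg15 had the largest estimate (-4.58 ± 0.84, adjusted p = 0.0603 by limma). Without ALL-VC replicate 1 or 2 no member was called, without either ALL-FGF10 library 1 was, and without ALL replicate 1 or 2 there were 6 and 12. Median-ratio rescaling shifted all genes by -0.18 and gave 7 lower members with 1.05% of all genes lower.

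In ALL-MTG no member was called against ALL by limma, where 0.513% of all genes were, and 28 of 44 had an unadjusted p under 0.05 (13.0% of all genes). All 44 estimates were again negative, with a median of -1.59 against 0.07 for all genes, and 34 members lay below ALL without overlap (14.8%). Of the 44, 33 had at least 1 TPM in both ALL-MTG libraries. The rest passed the filter only with libraries of other groups, which favours negative estimates. The lowest adjusted p was that of Irf7 at 38.6 and 11.52 TPM in ALL and 1.31 and 1.67 in ALL-MTG (-3.16 ± 0.57, adjusted p = 0.0725). Leaving out ALL replicate 2 gave 13 calls, and leaving out ALL-MTG replicate 2 gave 1.

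The omissions were also set against each other, with the spread still estimated over all 8 libraries, ALL included. In ALL-FGF10 against ALL-MTG, Ifit3 was higher, at 99.3 and 130 against 7.82 and 26.6 TPM (2.88 ± 0.51, adjusted p = 0.0283), and Sp100 was lower, at 0.29 and 0.62 against 7.15 and 7.48 TPM (-2.52 ± 0.52, adjusted p = 0.0451), again with both ALL-FGF10 libraries under 1 TPM. Of all genes 1.78% were higher and 1.74% lower. Both calls were lost without either ALL-FGF10 library or either ALL-VC library. Without ALL-MTG replicate 1 none was left, and without ALL-MTG replicate 2 there was 1. Leaving out either ALL library gave 7.

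In ALL-FGF10 against ALL-VC 3 members were higher and 0 lower (1.94% and 1.88% of all genes). Ifi27 was at 79.0 and 101 against 10.45 and 6.69 TPM (3.26 ± 0.34, adjusted p = 0.00341). Ifit3 was at 99.3 and 130 against 16.3 and 16.8 TPM (2.71), and Ifit2 at 24.2 and 31.5 against 7.69 and 10.9 TPM (1.49). Of the 44 members, 30 had at least 1 TPM in both ALL-VC libraries. The rest, Isg15 among them, passed the filter only with libraries of other groups, which favours higher values in ALL-FGF10. Without overlap, 28 members were higher in ALL-FGF10 (25.6% of all genes) and 3 lower (36.5%). The 3 were Psmb9, Sp100 (0.29 and 0.62 against 2.28 and 3.96 TPM) and Tap1 (3.96 and 4.53 against 6.40 and 7.99 TPM), and none of them was called. Without ALL-FGF10 replicate 2 no member was called, without ALL-FGF10 replicate 1 or either ALL-VC library 1 was, and without either ALL library 9 were. ALL-MTG against ALL-VC had 0 calls by limma, with 0.547% of all genes called, and 3 of 44 members at an unadjusted p under 0.05 (13.0% of all genes). Its members' median of -0.07 turned to 0.05 with median-ratio rescaling.

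**Figure D5:**
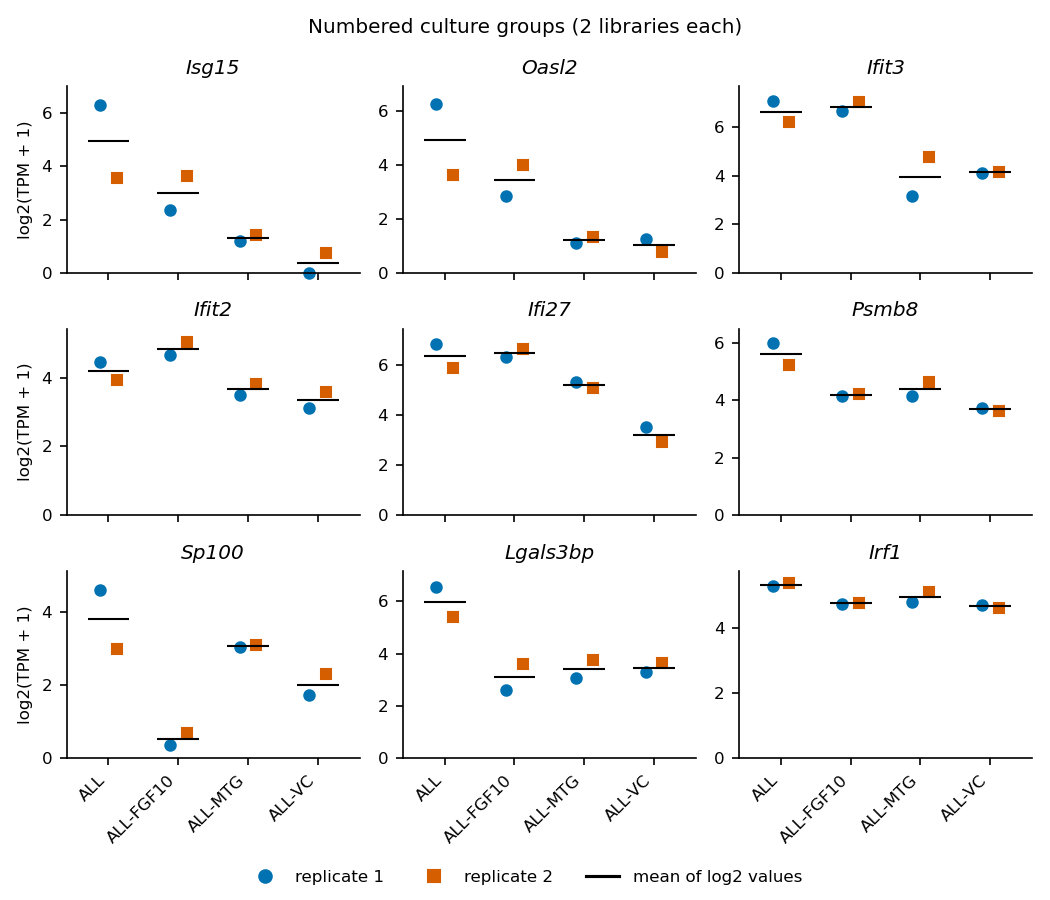
Log2(TPM + 1) of 9 members in the 4 numbered groups, with replicate 1 as a circle, replicate 2 as a square and the mean of the log2 values as a bar (n = 2). ALL replicate 1 lies far above replicate 2 for Isg15 (78.6 and 10.9 TPM), Ifit3 stays high in ALL-FGF10, and Sp100 and Lgals3bp are low there.

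Of the further interferon-stimulated genes, Lgals9 fell in ALL-MTG (-2.91 ± 0.36) and in ALL-VC (-2.36 ± 0.36), and Phf11d fell in ALL-VC (-3.87 ± 0.64). Mesenchyme markers summed to 91.8 TPM in ALL replicate 1, 4.69 in replicate 2, 180 in ALL-MTG replicate 1 and 0.54 to 8.16 TPM in the others. Immune markers summed to 0.67 to 4.92 TPM with 7 to 9 of 10 at 0. The part of these cells in the levels was not tested.

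In the 2C table each condition had 1 library, and 13 to 22 of the 48 members reached 5 TPM. Adding VC gave 3 of 22 members past the fold and 0 below it, against 5.81% of all genes higher and 3.8% lower. Psmb8 was at 4.04 TPM in 2C and 12.9 in 2C+VC, Ifi27 at 5.36 and 15.8, and Herc6 at 1.82 and 5.08. The 2C+VC library was the highest of the 5 for 21 of 31 members (18.7% of all genes). Adding F10 moved no member past the fold (3.08% of all genes were higher and 2.82% lower). With MTG 1 member was lower, Ifitm3 at 5.49 TPM in 2C and 1.55 in 2C+MTG, and 0 were higher (4.93% and 2.59% of all genes).

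The unnumbered ALL library of this table did not resemble the numbered ALL libraries. It held Isg15 at 0.54, Lgals3bp at 1.64, Psmb8 at 5.23, Ifi27 at 9.16, Sp100 at 0.87 and Tap1 at 3.77 TPM. Each of these is below both numbered ALL libraries, in a table normalized separately. Against 2C it had 1 member past the fold, Ifitm3 at 1.13 TPM (7.44% of all genes were lower and 4.89% higher).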

How the data were processed

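Per the labels, TRIzol served for total RNA, the VAHTS mRNA-seq v2 kit for libraries and a NovaSeq X Plus for reads. The 5 tables that the authors deposited hold TPM, for which the submitters' processing notes list RSEM, Bowtie2 and mm10 without versions. Depth and counting precision are unknown. Sample titles identified 40 columns, and 1 other column was not used. Tables were normalized separately, so tests stay within a table. Coordinates are from GENCODE M21 on GRCm38 and promoter sequences from RefSeq (GRCm38.p6).

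The 48 members and the gene lists were chosen with earlier results of these data known. Genes with at least 1 TPM in at least 2 libraries were tested as log2(TPM + 1), which understates changes of low genes, with limma 3.58.1 in R 4.3.3 (lmFit, eBayes with trend), two-sided, with Benjamini-Hochberg adjustment over all genes tested and a call threshold of 0.05 on the adjusted p. A common fit held the 8 numbered libraries. The culture day slope was fitted over 14 libraries with terms for group, start stage and tip stage, and multiplied by 21 days. Most settings there and among pieces have 1 library, so the spread around the fit stands in for replicates. LO and 2C differences have no test and were counted at a log2 difference of 1 with at least 5 TPM in the higher library. The fit was tested on simulated data with known changes.

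Named members are, in each role, the one with the highest mean TPM, up to 8 called per comparison by adjusted p and up to 6 past the fold. Others were added after their values were seen, to account for the whole list. Alternatives were another pseudocount (0.5 TPM), no filter, median-ratio and quantile scaling, only the groups compared, a replicate block and each library left out. Figures used Python 3.11.15 with matplotlib 3.10.9, numpy 2.4.6 and pandas 2.3.3. Some genes are not reported here.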

Additional observations from a re-analysis of the deposited data

Results flagged for a closer look

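In 69 sets of 4 tips or 10 organoids, 5 members had a library whose gap to its neighbour was large for the range of the set by Dixon's criterion (0.829 for 4 libraries, 0.466 for 10). Chance gives about 1 in 20, so a few such sets arise by chance. In the 30-day E13.5 organoid Herc6 was at 7.69 TPM and Oas3 at 1.34 TPM, each the highest of 10. Among tips, Ifi27 was at 4.4 TPM at E11.5 and at 0 in the other 3. Tap1 was lowest at E11.5 (0.62 TPM) and Irf9 lowest at E12.5 (3.69 TPM).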

How the results depend on the processing

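The 26 members higher in organoids than in tips stayed within 1.5 times under all alternatives run, with 24 to 28 calls when a library was left out. The 31 that rose with culture day gave 19 to 31 calls with a library left out, the lowest without the 30-day E13.5 organoid, and 12 without it and the 24-day E14 organoid (chosen after seeing the data). Values of single members were followed only for the called members with the lowest adjusted p in each comparison. Of these values none reversed and 59 lost their side of the threshold, all of the latter in the numbered groups. The remaining values kept it. Other called members were not followed, so the culture day calls lost above are not counted here. With a library left out, calls ran from 0 to 7 for ALL-FGF10 against ALL, 0 to 13 for ALL-MTG against ALL, 0 to 12 for ALL-VC against ALL, 0 to 7 for ALL-FGF10 against ALL-MTG, 0 to 9 for ALL-FGF10 against ALL-VC and 0 to 1 for ALL-MTG against ALL-VC. They ran from 0 to 1 for smaller against larger pieces, where 1 was called without the right-half piece. The causes were not tested.

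Without a filter more genes were tested. ALL-FGF10 against ALL, ALL-VC against ALL and ALL-FGF10 against ALL-MTG then had 0 calls and ALL-FGF10 against ALL-VC had 1. With only the groups compared, which leaves fewer samples, the counts were 0 for ALL-FGF10 against ALL, 1 for ALL-VC against ALL and 11 for ALL-FGF10 against ALL-VC. Why these counts moved was not tested. Median-ratio and quantile scaling both gave 5 for ALL-FGF10 against ALL and 1 for ALL-MTG against ALL-VC, and 7 and 6 for ALL-VC against ALL. For single libraries, rescaling left 1 member for LO day 11 against day 8. Counting from 1 TPM gave 11 for LO day 18 against day 11, 8 for DCI, 1 for 2C+F10 and 2 for 2C+MTG.

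Same-numbered libraries shared little deviation over all genes, with correlations from -0.07 to 0.11 over the 6 pairs of groups. With 2 libraries a group this cannot tell whether same-numbered libraries shared a culture, which the labels do not say. With the replicate block the counts were 0 for ALL-FGF10 against ALL, 1 for ALL-VC against ALL and 1 for ALL-FGF10 against ALL-MTG.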

Other observations

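Ranked by the median level of the 48 members, libraries of different tables overlapped, with the tables normalized separately. The median was 0.22 to 0.45 TPM in the 4 tips, 1.70 to 2.33 TPM in the 5 organoids of 11 to 13 days, and 14.6, 24.9 and 6.98 TPM at 24, 30 and 32 days. It was 35.8 TPM in the right-half piece and 28.5 TPM in ALL replicate 1. These 2 libraries are the ones in which all 48 members reached 1 TPM. The LO libraries (1.18 to 3.13 TPM) and the 2C table (1.51 to 4.11 TPM) lay near the young organoids.

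In all, 12 members were at 1 TPM or more in all 40 libraries: Ifit2, Irf1, Irf9, Stat2, Bst2, Ddx58, Parp9, Dtx3l, Trim25, Cmpk2, Eif2ak2 and Herc6.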
